A study of Mus musculus with 4 samples.

Results

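The Hoxb genes are the 10 homeobox genes of the mouse Hoxb cluster, Hoxb1 to Hoxb9 and Hoxb13, taken by gene symbol from tables that list 24453 genes. All 10 were present in each table. RNA came from tongue epithelium of mouse embryos on embryonic day 16, from cells sorted for EpCAM, a surface adhesion molecule of epithelial cells. The back of the tongue with its circumvallate papillae had been cut away, and the labels' protocol calls the sorted cells basal. There were 2 libraries labelled Ring1a/b 2KO, of genotype Ring1a-/- Ring1bfl/fl K14-Cre+, and 2 labelled control, whose alleles the labels do not spell out. In the 2KO genotype the Cre recombinase is driven by the keratin 14 promoter, so the cut of Ring1b is limited to cells with keratin 14 activity and their descendants, while the Ring1a change is in every cell. The comparison asks what happens to genes of this epithelium when both Ring1 proteins, the catalytic subunits of Polycomb repressive complex 1, are targeted.

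Hox genes encode transcription factors that tell cells where they lie along the body axis. Within a cluster they stand in the order of their activity: genes at the 3' end, such as Hoxb1, act in the hindbrain and head, and genes at the 5' end, such as Hoxb9 and Hoxb13, act in the trunk and tail. Polycomb complexes are the textbook repressors of these clusters in tissues where the genes are off. The tongue epithelium lies in the head, anterior to the domains in which most of the cluster is known to act.

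The 4 libraries held between 16256569 and 20624055 counts. A gene's level is given as CPM, its counts relative to the library's total after TMM scaling, unless FPKM, the authors' length-corrected value, is named. The ribosomal RNA precursor Rn45s made up 22.9% and 20.2% of all counts in the 2KO-labelled libraries, against 16.7% and 15.3% in control. Ring1 (Ring1a) had 16.8 and 15.0 CPM in the 2KO-labelled libraries, against 9.02 and 8.57 CPM in control, and Rnf2 (Ring1b) had 62.9 and 62.4 CPM against 34.0 and 51.3 CPM. Both targeted genes were thus not lower, and neither difference passed edgeR's quasi-likelihood test with Benjamini-Hochberg adjustment (adjusted p = 0.101 and 0.126), though Rnf2 did without control replicate 2 (adjusted p = 0.00853, higher). Counts over a whole gene cannot show that part of it was cut out, so the genotype is unchecked and every direction here is that of the libraries as labelled. Epcam, the marker used in the sort, had 216 and 245 CPM in the 2KO-labelled libraries and 221 and 189 CPM in control (adjusted p = 0.542). Nothing in the labels says that replicates came from separate embryos. The p-values therefore speak of the spread among these libraries, which may be technical.

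In the 2KO-labelled libraries 7 of the 10 Hoxb genes were detected, here meaning more than 3 counts over the libraries of a group, against 4 of 10 in control. Hoxb8, Hoxb9 and Hoxb13 rose, Hoxb2, Hoxb3 and Hoxb4 were higher but did not pass the test, Hoxb7 appeared at a level too low to be tested, and Hoxb1, Hoxb5 and Hoxb6 were silent in both groups. Of the 6 members tested, 3 rose and none fell, beside 7.00% of the 15336 genes tested that rose and 4.92% that fell. By DESeq2, limma-voom and limma on FPKM values the number that fell was also 0. Hoxb8 and Hoxb13 had 0 counts in both control libraries, so they entered the test through the 2KO-labelled libraries alone and could not have fallen. At an unadjusted p under 0.05 the edgeR count was 4 higher and 0 lower, beside 4241 of all 15336 genes tested in either direction. Both 2KO-labelled libraries lay above both control libraries for 8 of the 9 members with any count, beside 26.8% of all genes with a count, although Hoxb6 enters that number with a single read in each 2KO-labelled library.

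**Figure D1:**
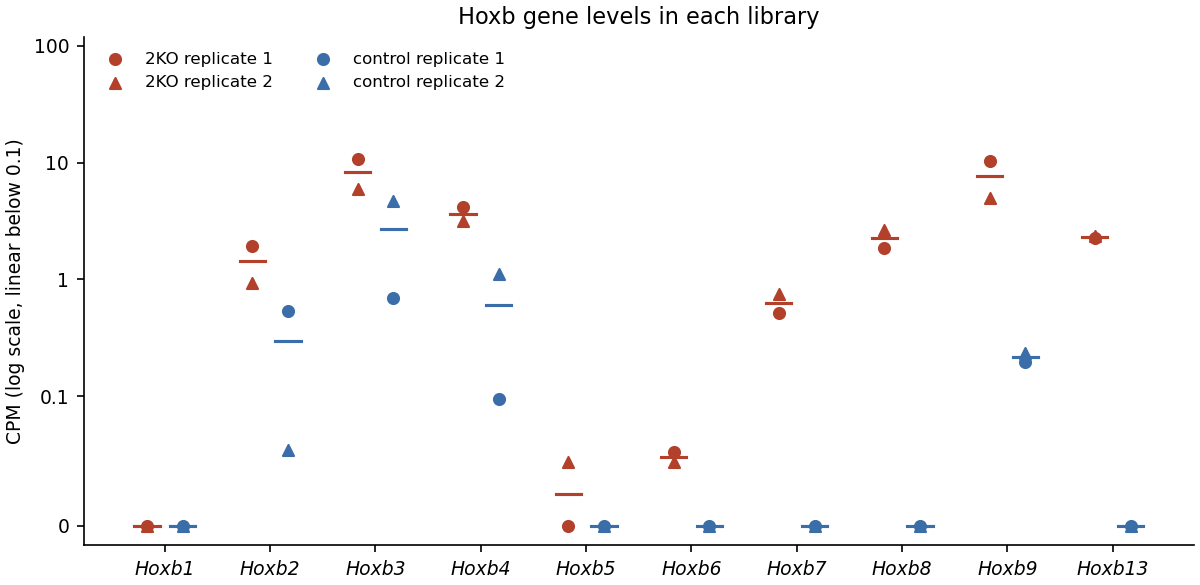
Level of each Hoxb gene in CPM (log scale, linear below 0.1) in the 2KO-labelled libraries (red) and the control libraries (blue); circles are replicate 1, triangles replicate 2 and bars the group mean. Hoxb7, Hoxb8 and Hoxb13 are at 0 in both control libraries and between 0.510 and 2.67 CPM in the 2KO-labelled libraries, and Hoxb1 is at 0 in all 4.

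The cluster spans 173.9 kb of chromosome 11 (96194316 to 96368256, mm10), with all 10 genes on the plus strand, so that Hoxb13 comes first by coordinate and Hoxb1 last. The genes that rose lie at 96194316 to 96197447 (Hoxb13), 96271457 to 96276595 (Hoxb9) and 96281905 to 96285315 (Hoxb8). Of the 10 members, 3 matched an entry in the promoter table, Hoxb8, Hoxb4 and Hoxb1, and they are shown because their levels differ: Hoxb8 was at 0 in control and rose, Hoxb4 was present in control and was higher without passing the test, and Hoxb1 stayed at 0. Each run holds 250 bases before and 50 after the gene's start (RefSeq, build GRCm38.p6), with CpG dinucleotides, the sites that cluster at many Polycomb-bound promoters, in capitals.
Hoxb8, chr11:96281655-96281954, plus strand: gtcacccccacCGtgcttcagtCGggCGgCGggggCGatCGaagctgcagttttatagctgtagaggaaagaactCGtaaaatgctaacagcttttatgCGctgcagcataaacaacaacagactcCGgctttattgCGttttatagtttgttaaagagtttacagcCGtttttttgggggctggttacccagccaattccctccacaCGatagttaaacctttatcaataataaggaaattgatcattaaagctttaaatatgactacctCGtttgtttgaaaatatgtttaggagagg
Hoxb4, chr11:96318017-96318316, plus strand: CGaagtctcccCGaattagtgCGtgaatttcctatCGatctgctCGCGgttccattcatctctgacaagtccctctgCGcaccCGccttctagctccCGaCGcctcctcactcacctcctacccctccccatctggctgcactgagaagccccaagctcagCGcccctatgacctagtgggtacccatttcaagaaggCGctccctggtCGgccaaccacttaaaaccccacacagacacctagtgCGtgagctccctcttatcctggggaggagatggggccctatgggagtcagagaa
Hoxb1, chr11:96365508-96365807, plus strand: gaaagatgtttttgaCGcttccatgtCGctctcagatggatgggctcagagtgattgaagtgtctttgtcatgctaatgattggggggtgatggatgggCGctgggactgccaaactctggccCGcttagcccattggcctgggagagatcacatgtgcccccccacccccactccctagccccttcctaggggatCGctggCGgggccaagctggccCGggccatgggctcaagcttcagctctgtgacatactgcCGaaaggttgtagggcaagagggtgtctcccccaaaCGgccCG
The Hoxb8 promoter holds 13 CpG dinucleotides in sequence of 42.3% G and C, the Hoxb4 promoter 14 in 58.0%, and the Hoxb1 promoter 10 in 59.3%. The median was 7.0 over 32851 mouse promoters of the same length, and 37.9%, 36.3% and 43.5% of these held at least as many, so such numbers are common. CpG dinucleotides stood at 0.97, 0.59 and 0.38 of the number that base composition alone would give, in the same order of genes.
The motif TGATNNAT, a form of the paired site bound by HOX proteins with their PBX partners, was searched on both strands and occurs in 8.8% of these promoters. It is found once in Hoxb8, on the minus strand with its first base at -11 from the start, once in Hoxb1, on the plus strand at -162, and not in these letters in the Hoxb4 window. TATAAA, the TATA box, is in 13.6% of the promoters and matched the minus strand of Hoxb8 at -199 and -110 but neither of the others. CCAAT is in 37.4% and matched Hoxb8 at -57 on the plus strand and Hoxb1 at -171 and -117 on the minus strand. No match overlapped another. These matches describe the sequence and show nothing of what is bound there.

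Among the 5' genes, Hoxb9 was the clearest case. Hoxb9, a trunk gene that with its paralogs shapes the rib cage, had 10.3 and 5.0 CPM in the 2KO-labelled libraries, against 0.196 and 0.235 CPM in control, where it had 4 counts in each library. The groups were far apart and the control libraries close to each other. The log2 fold change was 5.11 (standard error 0.770, edgeR adjusted p = 0.00197), higher in both 2KO-labelled libraries than in either control. Without 2KO-labelled replicate 1 it was 4.496 (adjusted p = 0.0113).

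Hoxb8, a caudal gene also known for its action in blood progenitors, had 33 and 54 counts in the 2KO-labelled libraries (1.87 and 2.67 CPM) and 0 in both control libraries. Set against 3 counts over the control group (0.0801 CPM), it was at least 28.7-fold higher (edgeR adjusted p = 0.0133). The call was lost without 2KO-labelled replicate 2 (adjusted p = 0.0619) and on FPKM values (0.0734 to 0.223).
Hoxb13, the most posterior gene of the cluster and known for its roles in the tail and prostate, had 40 and 48 counts in the 2KO-labelled libraries and again 0 in both controls. Its 2.27 and 2.37 CPM were the closest pair among the detected members, and it was at least 29.0-fold higher (edgeR adjusted p = 0.0124).
Hoxb7, known from the ureteric bud of the kidney, had 9 and 15 counts (0.510 and 0.742 CPM) in the 2KO-labelled libraries and none in control. That places it at least 7.91-fold higher, but it did not pass the filter on low counts and has no test in the edgeR comparison above. In an edgeR fit with no such filter, where 8.09% of genes were called higher, its adjusted p was 0.137, and by limma on log2(FPKM + 1) and log2(FPKM + 0.1) it was 0.0853 and 0.0706.

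A switch from no count to a detectable level was seen in 3 members, Hoxb7, Hoxb8 and Hoxb13, of the 6 with 0 counts in both control libraries. Over all 6382 genes with 0 counts in both controls, 588 (9.21%) reached more than 3 counts over the 2KO-labelled libraries. Only 19211 of the 24453 genes had a count in any library, so most of those 6382 were at 0 throughout. Among genes with a count the share is therefore much higher, and the contrast does not set the Hoxb members apart. Summed over Hoxb7, Hoxb8, Hoxb9 and Hoxb13, a set put together after the values were seen, the counts were 263 and 218 in the 2KO-labelled libraries and 4 and 4 in control.

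The 3' genes Hoxb2, Hoxb3 and Hoxb4 were present in control already, mostly as Hoxb3 and Hoxb4 transcripts in control replicate 2. Hoxb3, a gene of the hindbrain and of the pharyngeal region, had 10.8 and 5.99 CPM in the 2KO-labelled libraries, against 0.686 CPM in control replicate 1 and 4.69 CPM in control replicate 2. Hoxb4, a hindbrain gene also known in blood stem cells, had 4.14 and 3.17 CPM in the 2KO-labelled libraries, against 0.0980 and 1.11 CPM in control, with control replicate 2 again the higher. For both genes the groups did not overlap, but control replicate 2 stood 6.84-fold and 11.4-fold above control replicate 1. Among tested genes within 2-fold of their control level, 4.11% differed as much between the control libraries as Hoxb3 did, and 15.9% as much as Hoxb4.

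Hoxb3 and Hoxb4 did not pass, with log2 fold changes of 1.65 for Hoxb3 (standard error 0.753, edgeR adjusted p = 0.183) and 2.60 for Hoxb4 (standard error 1.04, adjusted p = 0.130). Without control replicate 2 both rose, by log2 fold changes of 3.61 (adjusted p = 4.89e-04) and 5.14 (adjusted p = 0.00489), in a comparison where 8.05% of genes were called higher. Without control replicate 1 neither passed (0.86, adjusted p = 0.303, and 1.73, adjusted p = 0.217). Hoxb3 was also called without 2KO-labelled replicate 2 (adjusted p = 0.0496).
Hoxb2, which patterns hindbrain segments and the facial nerve's motor neurons, went against its neighbours between the control libraries. It had 34 and 19 counts in the 2KO-labelled libraries (1.93 and 0.940 CPM), against 11 in control replicate 1 and 1 in control replicate 2 (0.539 and 0.0587 CPM). The log2 fold change of 2.21 (standard error 1.26, edgeR adjusted p = 0.291) did not pass. It was 4.48 without control replicate 1 and 1.41 without control replicate 2, again not past the threshold (adjusted p = 0.147 and 0.613). Of tested genes at its control level, 35.1% differed as much between the control libraries.
Of all Hoxb counts over the 2KO-labelled libraries, Hoxb3 made up 31.6%, Hoxb9 28.6%, Hoxb4 13.9%, Hoxb13 8.93% and Hoxb8 8.83%. The control libraries differed in make-up: Hoxb3 was 45.2% of the Hoxb counts in control replicate 1 and 76.9% in control replicate 2, Hoxb2 was 35.5% and 0.962%, and Hoxb9 was 12.9% and 3.85%. Of Hoxb7 to Hoxb13, Hoxb9 was the member with counts in control.

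**Figure D2:**
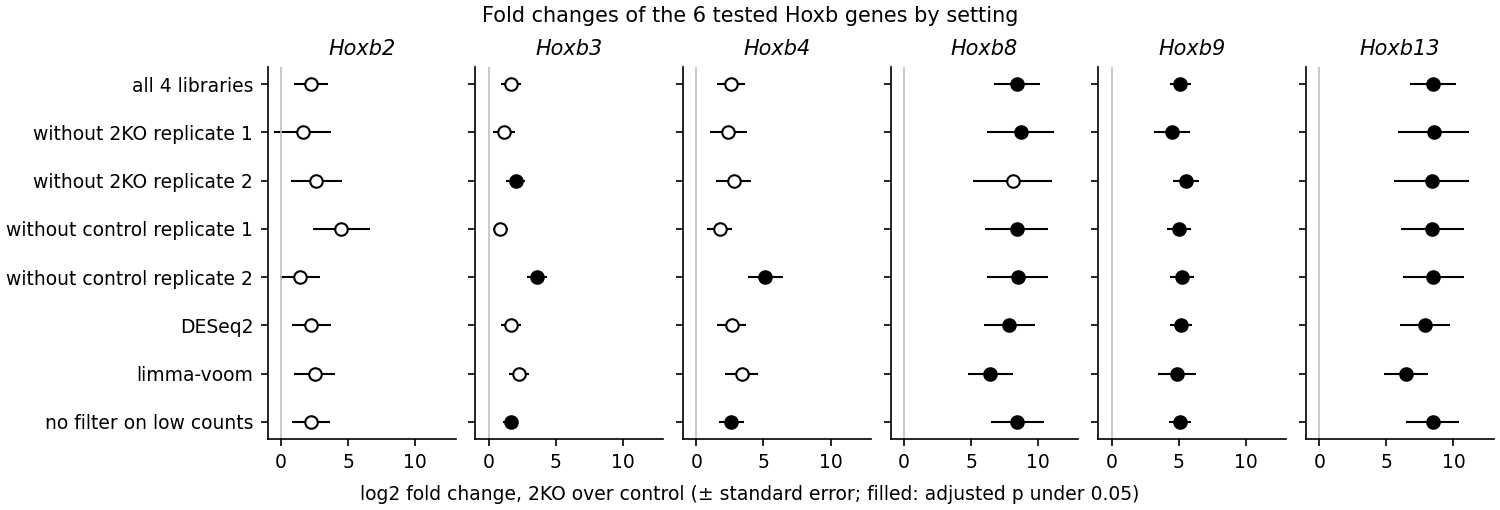
Log2 fold change of the 6 tested Hoxb genes, 2KO-labelled over control, with its standard error, for the comparison of all 4 libraries, with each library left out, and with another tool or no filter; filled points have an adjusted p under 0.05. Hoxb9 and Hoxb13 are filled in every row drawn, Hoxb8 in every row except the one without 2KO-labelled replicate 2, Hoxb3 and Hoxb4 become filled without control replicate 2 and with no filter, and Hoxb3 also without 2KO-labelled replicate 2; Hoxb8 and Hoxb13 are at 0 in control, so their fitted fold changes are no measured size.

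Muscle transcripts, like Hoxb3 and Hoxb4, were higher in control replicate 2 than in control replicate 1. The 7 markers of skeletal muscle summed to 17.5 and 38.6 CPM in the 2KO-labelled libraries, against 29.1 CPM in control replicate 1 and 156 CPM in control replicate 2. Myh3, an embryonic myosin heavy chain, had 66.8 CPM in control replicate 2 and 5.44 CPM in control replicate 1. Of the 6 muscle markers tested, 0 passed between the groups by edgeR, DESeq2 or limma-voom, with 3 lower by edgeR at an unadjusted p under 0.05. Among all 15336 genes tested by edgeR, 4.92% fell, and 4241 were under that unadjusted threshold in either direction. The part of muscle transcripts in the level of Hoxb3 and Hoxb4 was not tested. Other 3' Hox genes were also higher in control replicate 2: Hoxa3 had 3.58 CPM there and 0 counts in control replicate 1, and Hoxc5 had 1.06 CPM and 0 counts.

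Hoxb1, Hoxb5 and Hoxb6 stayed silent. Hoxb1, which marks a single segment of the hindbrain, had 0 counts in all 4 libraries and an FPKM of 0. Hoxb5, known in the nerve precursors of the gut, had a single count, in 2KO-labelled replicate 2, and Hoxb6, a gene of trunk mesoderm, had 1 count in each 2KO-labelled library and none in control. With 3 counts over a group corresponding to 0.0793 CPM in the 2KO-labelled group and 0.0801 CPM in control, levels below that could not be told from 0 at this depth. The FPKM values told the same: at most 0.0661 for Hoxb6 and 0.0334 for Hoxb5 in a 2KO-labelled library, and 0 in both controls.
Hoxb5 and Hoxb6 lie side by side, with Hoxb4 12.1 kb away on one side of the pair and Hoxb7 2.3 kb away on the other, and both of those neighbours had counts in the 2KO-labelled libraries. Hoxb5os, an antisense transcript across the pair, and the microRNA gene Mir10a, between Hoxb5 and Hoxb4, had 0 counts in all 4 libraries. Exons of Hoxb5 overlap those of Hoxb5os over 3.6% of their length and those of Hoxb6 overlap no other gene.

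**Figure D3:**
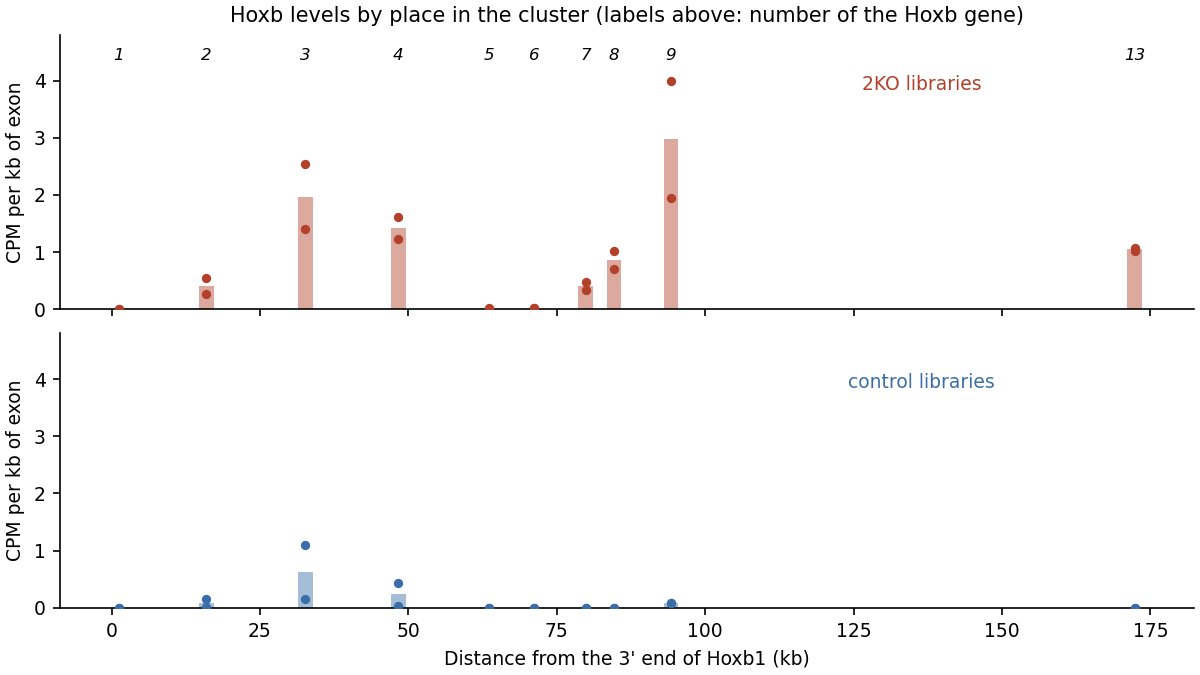
Level of each Hoxb gene in CPM per kb of annotated exon, by distance in kb from the 3' end of Hoxb1, in the 2KO-labelled libraries (upper panel) and the control libraries (lower panel); bars are means and points are single libraries. Hoxb5 and Hoxb6 are at or near 0 between Hoxb4 (1.61 and 1.23 CPM per kb in the 2KO-labelled libraries) and Hoxb7 (0.331 and 0.482), and Hoxb13 lies 74.0 kb from Hoxb9.

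Per length, the order of the detected members in the 2KO-labelled libraries was read first from FPKM. Ordered by its mean, Hoxb9 had FPKM values of 3.71 and 1.79, Hoxb13 2.68 and 2.61, Hoxb3 2.73 and 1.56, and Hoxb4 1.95 and 1.38. Each of these overlapped its neighbour in the order. Hoxb8 followed with an FPKM of 0.527 and 0.884, Hoxb2 with 0.889 and 0.491 and Hoxb7 with 0.612 and 0.741, again overlapping each other but not Hoxb4. In control the order by mean FPKM was Hoxb3 (0.142 and 1.19), Hoxb4 (0.0436 and 0.476), Hoxb2 (0.444 and 0.0532) and Hoxb9 (0.0781 and 0.0228), and neighbours overlapped throughout.
The place of Hoxb13 depended on the measure, while Hoxb8, Hoxb2 and Hoxb7 stayed below Hoxb4 without overlap. By CPM per kb of exon Hoxb4 (1.61 and 1.23) lay above Hoxb13, which lay just above Hoxb8 (0.712 and 1.02). Hoxb2 (0.552 and 0.269) and Hoxb7 (0.331 and 0.482) followed below Hoxb8 and overlapped each other. By that measure Hoxb13 ranked 4, with 1.03 and 1.07, below Hoxb9, Hoxb3 and Hoxb4, where by FPKM it ranked 2. Its mean FPKM was 2.52 times its CPM per kb, against 0.817 times for Hoxb8. The reads behind this difference between the measures were not analysed here.
Some exons of this cluster are shared with antisense genes: 52.9% of the Hoxb3 exon length and 27.3% of that of Hoxb2 lie under exons of Hoxb3os. The strand setting of the counting is not given in the sources used here, so reads of these genes and of Hoxb3os cannot be told apart.

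Summed over the 10 members, the cluster reached 31.8 CPM in 2KO-labelled replicate 1 and 20.98 CPM in replicate 2, against 1.52 and 6.10 CPM in control. The means were 26.4 ± 7.66 and 3.81 ± 3.24 CPM (SD, n = 2 each), a ratio of 6.93, with no overlap. A comparison of 2 against 2 values cannot go below an exact permutation p of 0.333, so the sum was not tested. The ratio was 17.4 without control replicate 2 and 4.33 without control replicate 1.

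Of 10 other genes annotated inside the cluster, 5 were among the 24453 genes listed, and those 5 were low. The rest, Hoxb3os among them, have no value here. Gm11538, a non-coding RNA gene between Hoxb13 and Hoxb9, had 23 and 15 counts in the 2KO-labelled libraries and none in control, at least 12.5-fold higher, and it passed by a narrow margin (edgeR adjusted p = 0.0499). That call was lost under 10 of the 13 other settings that gave it an adjusted p (0.0514 to 0.250), among them each library left out. Gm53, a non-coding RNA gene between Hoxb13 and Hoxb9, had 2.67 and 2.77 CPM in the 2KO-labelled libraries and 0.343 and 0.587 CPM in control (log2 fold change 2.54, adjusted p = 0.102). On FPKM, which lists it at 0 in both controls, it was called higher with the filter on low values (limma adjusted p = 0.0268 and 0.0213). Mir196a-1, a microRNA gene near Hoxb9, had a single count, and these libraries are not made to capture mature microRNAs.
Of 24 genes in the files whose bodies lie within 500 kb of the cluster, 14 were tested, 1 rose and 13 did not pass, beside the 7.00% of all tested genes that rose. Their median log2 fold change was -0.22. DESeq2 called 2 of them higher and limma-voom 1, and 3 were higher by each tool at an unadjusted p under 0.05. By edgeR 4241 of all 15336 genes tested were under that unadjusted threshold in either direction. The gene that rose was Atp5g1, a subunit of the mitochondrial ATP synthase 118.6 kb beyond Hoxb13, with 76.9 and 86.0 CPM in the 2KO-labelled libraries and 47.4 and 48.9 CPM in control (log2 fold change 0.76, adjusted p = 0.0199). Leaving out 2KO-labelled replicate 2 ended that call (adjusted p = 0.123).
The nearest counted gene beyond Hoxb13 was Ttll6, a tubulin-modifying enzyme 28.9 kb away, with 29 and 0 counts in the 2KO-labelled libraries and 39 and 38 in control (log2 fold change -1.34, adjusted p = 0.573). It was called lower without 2KO-labelled replicate 1 (adjusted p = 0.0362). Beyond Hoxb1 the nearest gene with a count was Skap1, an adaptor of T cell signalling 96.3 kb away, which was too low to be tested with 4 and 2 counts in the 2KO-labelled libraries and 0 and 2 in control.

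**Figure D4:**
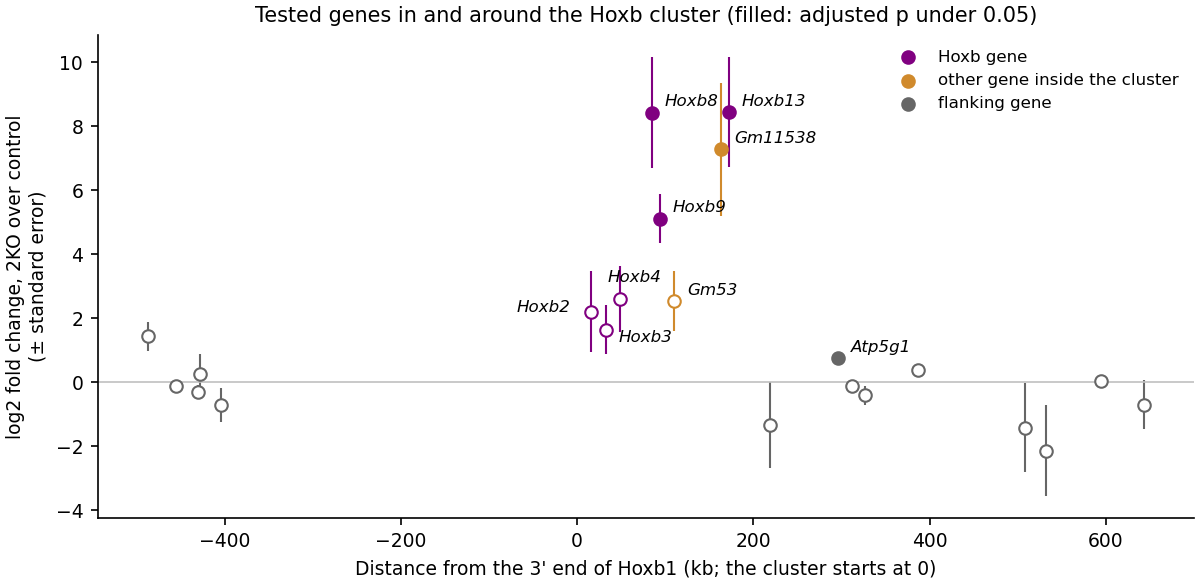
Log2 fold change, 2KO-labelled over control, with its standard error, for each tested gene inside the Hoxb cluster or within 500 kb of it, by distance in kb from the 3' end of Hoxb1; filled points have an adjusted p under 0.05. Hoxb8, Hoxb9, Hoxb13 and Gm11538 are filled inside the cluster and Atp5g1 is the filled point outside it; the fitted values of Hoxb8, Hoxb13 and Gm11538 rest on controls at 0 and give no measured size.

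The other Hox clusters were higher in both 2KO-labelled libraries too. Hoxd genes summed to 75.8 and 90.8 CPM there, against 0.441 and 0.0587 CPM in control. Hoxa genes summed to 37.9 and 62.8 CPM against 0.245 and 4.46 CPM, and Hoxc genes to 46.8 and 49.2 CPM against 14.8 and 26.0 CPM. In control the Hoxc sum was nearly all Hoxc13, which held 302 of 302 and 410 of 443 Hoxc counts. In the 2KO-labelled libraries Hoxc13 held 162 of 825 and 139 of 994. Whether the clusters differ in response was not tested. Of the 39 Hox genes of the 4 clusters, 36 were detected in the 2KO-labelled libraries and 12 in control. The 3 that were not detected in the 2KO-labelled libraries were Hoxb1, Hoxb5 and Hoxb6, while among their paralogs Hoxd1 had 31 counts over the 2KO-labelled libraries, Hoxa5 and Hoxc5 had 94 and 65, and Hoxa6 and Hoxc6 had 16 and 191. In paralog groups 8 and 9 all members rose, 3 of 3 and 4 of 4, beside 7.00% of all genes tested. The 3 members of group 8 and Hoxc9 had 0 counts in both control libraries and could not have fallen. In groups 1, 2 and 3 the genes that rose were 0 of 1, 0 of 2 and 0 of 3 tested. In groups 4 and 5 they were 1 of 4 and 1 of 2 tested, and in groups 6 and 7 1 of 1 each. In group 13 Hoxb13 rose with Hoxa13 and Hoxd13, while Hoxc13, with 9.19 and 6.88 CPM in the 2KO-labelled libraries and 14.8 and 24.1 CPM in control, fell (log2 fold change -1.27, edgeR adjusted p = 0.0361). The call of Hoxc13 was lost without 2KO-labelled replicate 2 (0.120), without control replicate 2 (0.159) and on FPKM values (0.0831 to 0.323).

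HOX proteins bind DNA with partners of the PBX, MEIS and PKNOX families. Of 9 such cofactor genes, all tested, 2 rose and 7 did not pass, beside 7.00% of all tested genes that rose. Pknox2 had 8.34 and 8.01 CPM in the 2KO-labelled libraries and 0.931 and 1.23 CPM in control (log2 fold change 2.91, edgeR adjusted p = 0.00882), and Meis2 had 308 and 276 CPM against 185 and 178 CPM (log2 fold change 0.69, adjusted p = 0.0135). Meis2 lost its call without 2KO-labelled replicate 1 (adjusted p = 0.0756), and both lost theirs on FPKM values (0.0506 to 0.228). The median log2 fold change of the cofactors was 0.32, beside 0.0065 over all genes tested.

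Retinoic acid is the classical inducer of 3' Hox genes, and Cdx factors act on the central and 5' genes. Of 21 genes of retinoic acid handling and Cdx factors, 17 were tested, 3 rose, 2 fell and 12 did not pass, with a median log2 fold change of 0.20, beside 7.00% of all tested genes that rose and 4.92% that fell. Aldh1a2, an enzyme that makes retinoic acid, had 25.5 and 24.6 CPM in the 2KO-labelled libraries and 0.392 and 2.52 CPM in control (log2 fold change 4.13, edgeR adjusted p = 0.00167), with a log2 fold change of 3.33 without control replicate 1 and 5.98 without control replicate 2, called in both. Cyp26a1, an enzyme that breaks it down, had 2.61 and 4.40 CPM against 11.3 and 30.6 CPM (log2 fold change -2.57, adjusted p = 0.00759), and its call was lost on FPKM values (0.0601 to 0.354). Without control replicate 2 its log2 fold change was -1.68 (adjusted p = 0.0318). The binding proteins Crabp1 and Crabp2 rose by log2 fold changes of 1.63 and 1.07. Dhrs3, a retinal reductase, fell (log2 fold change -0.88, edgeR adjusted p = 0.0417), which did not hold without 2KO-labelled replicate 2 (0.245), without control replicate 2 (0.0680), with upper-quartile scaling (0.0576) and on FPKM values with no filter (0.161). Of the Cdx genes, Cdx2 and Cdx4 had 0 counts in all libraries and Cdx1 had a single count, in 2KO-labelled replicate 2.

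Markers of other cell types were looked at because Hox genes are active in mesenchyme, nerve and vessels of the trunk. By edgeR 0 of 8 tested endothelial, 0 of 5 Schwann and neural crest and 0 of 3 blood markers passed. At an unadjusted p under 0.05, 2 endothelial and 1 Schwann marker were higher and 1 blood marker lower. Among all 15336 genes tested by edgeR, 7.00% rose and 4.92% fell, and 4241 were under that unadjusted threshold in either direction. At such shares a list this small can hold 0 calls. DESeq2 called 1 endothelial and 1 Schwann marker higher and no blood marker, and limma-voom called 0 in each list. Of 9 tested mesenchyme markers Postn fell, and of 6 tested neuronal markers Elavl3 rose and Tubb3 fell. Endothelial markers summed to 37.3 and 60.5 CPM in the 2KO-labelled libraries and to 28.9 and 24.4 CPM in control, with no overlap between the groups and none of its 8 members at 0. Mesenchyme markers summed to 382 and 345 CPM in the 2KO-labelled libraries and 310 and 378 CPM in control, neuronal markers to 22.7 and 29.5 against 27.2 and 28.2 CPM, and blood markers to 9.64 and 7.82 against 9.80 and 11.5 CPM. Schwann and neural crest markers summed to 82.7 and 106 CPM against 136 and 84.2 CPM. The blood sum holds nothing from Hba-a1, a globin gene with 0 counts in all 4 libraries. Its FPKM was 13.7 and 39.3 in the 2KO-labelled libraries and 14.6 and 39.1 in control, so for that gene 0 counts did not mean no RNA. Of 8 epithelial markers, the basal keratins Krt5 and Krt14 fell, and the lowest of the 8, Krt8, still had 31.1 and 24.8 CPM in the 2KO-labelled libraries and 24.6 and 31.5 CPM in control. Leaving out control replicate 1 ended the calls of both keratins (edgeR adjusted p = 0.112 and 0.0674), and those of Elavl3 and Postn ended without 2KO-labelled replicate 1 (0.163 and 0.270). With upper-quartile scaling Krt5 and Postn did not pass (0.0558 and 0.0513), by limma-voom Elavl3 did not (0.0731), and on FPKM values none of these 4 genes did (0.126 to 1). The part of other cells in the Hoxb levels was not tested, and in such bulk samples fewer cells of a type and less RNA per cell cannot be told apart.

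The 5 genes outside the Hox lists whose log2 CPM over the 4 libraries lay nearest to that of the summed Hoxb counts were Tfap2b, Gpr153, St8sia2, Pde8a and Sept3. Their Euclidean distances were 0.568, 0.659, 0.867, 0.959 and 0.973 log2 units. Tfap2b, an AP-2 transcription factor, had 32.7 and 24.9 CPM in the 2KO-labelled libraries and 1.42 and 8.68 CPM in control, with control replicate 2 the higher of the controls as for the Hoxb sum. With 4 libraries such likeness rests on few points. Tfap2b was called higher by edgeR (adjusted p = 0.0202) and not by DESeq2 (0.112).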

How the data were processed

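The authors deposited read counts per gene for each library and 1 table of FPKM values. The submitters' processing notes name build mm10 and HTSeq 0.6.1, TopHat2 2.0.13, DESeq2 1.6.3 and Cufflinks 2.2.1, without saying which made which values. Neither annotation nor strandedness is given in the sources used here. Per the labels' protocols, the RNA was amplified before sequencing, so reads are not independent molecules, and floors cover counting error only.

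Counts were compared with edgeR 4.0.16 (R 4.3.3; TMM, filterByExpr, quasi-likelihood test, two-sided, genotype alone) over 15336 genes, Benjamini-Hochberg adjusted, threshold 0.05. The biological coefficient of variation was 0.3126. Adjusted p-values come from it where no other tool is named. Steps were tested on simulated counts. A fold against a group at 0 uses 3 counts over the group. Alternatives were other scalings and filters, DESeq2 1.42.0, limma 3.58.1 (voom on counts, trend on FPKM), a replicate block and each library left out. Coordinates, exon lengths and overlaps are from GENCODE M21 (the same build; Gm11538 from RefSeq). No value column lacked a sample.

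Named are the 10 members, genes inside the cluster, the nearest and called flanking genes, called genes of each list and the 5 nearest profiles; Hoxa3, Hoxc5, Hoxc13, Myh3 and paralogs with their values were picked after these were seen. Members and lists were chosen with earlier results of these data known. Some items are not reported here.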

Additional observations from a re-analysis of the deposited data

How the results depend on the processing

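Hoxb9 and Hoxb13 rose under every setting tried except log2(FPKM + 1) with no filter, which called 0 genes of any kind, with 3519 of 24453 at an unadjusted p under 0.05, 6 of them Hoxb members. The main count of 3 members was 5 with no filter on low counts, 2 on log2(FPKM + 1) and on log2(FPKM + 0.1), 0 without the FPKM filter, and 3 to 5 with each library left out; none was lower under any setting. Hoxb3 and Hoxb4 joined with no filter (adjusted p = 0.0292 and 0.0396), where 8.09% of genes were called higher; the cause was not tested. Over all genes, 1073 were higher and 754 lower. The numbers were 477 and 164 on log2(FPKM + 1), 412 and 152 on log2(FPKM + 0.1), 0 and 0 with no FPKM filter, and 1554 and 1242 with no filter on low counts. With each library left out they ranged over 839 to 1643 higher and 537 to 1104 lower. Calls were 58.7% higher in the main comparison and 74.4% on log2(FPKM + 1). The replicate block gave 1156 higher and 880 lower and the same 3 members; replicate numbers are not said to mark a shared litter, deviations of same-numbered libraries correlated at r = -0.023 across genes, and the block ended the call of Gm11538 (adjusted p = 0.0933) and of no other named gene. The summed Hoxb level gave log2 ratios of 2.79 to 2.84 under the scalings tried, 3.21 as summed FPKM, and 2.11 to 4.12 with each library left out. No called gene named here changed sign. At this depth, levels under 0.0793 CPM could not be told from 0.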
